A study of Saccharomyces cerevisiae with 16 samples.

Results

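A total of 81 of the 6692 genes counted in this yeast series encode large-subunit proteins of the cytosolic ribosome. They were taken by name alone: every symbol made of RPL, a number and at most a copy letter, together with the stalk genes RPP0, RPP1A, RPP1B, RPP2A and RPP2B. No measured value entered that choice. The set holds 33 pairs of A and B copies, 11 genes with no second copy and the 4 acidic P proteins, spread over 14 chromosomes, and 53 of the 81 have an intron in the coding sequence. RNAseq, which reads fragments of total RNA after depletion of rRNA, and Riboseq, which reads the pieces of mRNA that ribosomes protect from RNase, were both prepared from each extract of 8 cultures of Saccharomyces cerevisiae. Translation efficiency (TE) is the ratio of Riboseq to RNAseq. The 4 groups had 2 cultures each: ∆ntd cells in SD with 3% urea, ∆ntd cells in SD, WT cells in SD with 3% urea and WT cells in SD, where SD is synthetic medium with glucose and ammonium sulfate. Cells labelled ∆ntd carried tif3∆ntd, an allele of TIF3 whose product, the translation initiation factor eIF4B, lacks the N-terminal domain that binds the small ribosomal subunit, and cells labelled WT carried full-length TIF3. The labels name the WT strain as BY4741, while the study's methods describe a single haploid host for both alleles (YSW4, MATa his3Δ1 leu2Δ0 ura3Δ0 met15Δ0 tif3Δ0) in which the chromosomal TIF3 is deleted. Both alleles encode a histidine tag and were expressed from their own promoter and terminator on the single-copy plasmid pHLUM, which also restores the markers, by the same methods.

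Large-subunit proteins fold around the ribosomal RNA of the subunit that forms peptide bonds. RPL3, RPL10 and RPL2 reach towards the catalytic centre, RPL4, RPL17 and RPL39 line the tunnel through which the new chain leaves, RPL5 and RPL11 hold the small rRNA of the central protuberance, and RPP0 with the acidic P proteins forms the flexible stalk that recruits translation factors. Yeast makes most of these proteins from a pair of genes left by an ancient genome duplication, and their transcription is known to follow growth and nutrients through the factors Rap1, Fhl1, Ifh1 and Sfp1.

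Copies of a pair are so alike that short reads cannot always be assigned, and the authors counted only reads that map to a single place. Of all windows of 28 nt in its coding sequence, a gene shared under 10% with any other gene for 29 members, between 10% and 50% for 36 and over 50% for 16. The RPL41 pair has 1 mismatch over 78 coding bases, with 82.4% of windows shared, and is shown because its RNA ratio crossed between the strains. RPL41 is the shortest protein of the ribosome and sits at the bridge between the subunits. The whole coding sequences are printed with the base that differs in capitals. In the RefSeq copy of the R64 genome, RPL41A lies on the minus strand at chrIV:130407-130484 and RPL41B on the minus strand at chrIV:221724-221801, and neither has an intron.
RPL41A: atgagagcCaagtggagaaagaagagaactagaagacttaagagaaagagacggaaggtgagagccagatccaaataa
RPL41B: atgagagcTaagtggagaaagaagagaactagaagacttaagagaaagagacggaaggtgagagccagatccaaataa
Reads that cover the capital are the only ones that tell these copies apart within the coding sequence.

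The RPL35 pair, whose product lies near the mouth of the exit tunnel, has 3 mismatches over 363 coding bases and 86% of windows shared. It is shown because its copies went against most members below. RPL35A lies at chrIV:117664-118517 and RPL35B at chrIV:217600-218367, both on the plus strand and with an intron, and the first 90 coding bases follow with the bases unlike the other copy in capitals.
RPL35A: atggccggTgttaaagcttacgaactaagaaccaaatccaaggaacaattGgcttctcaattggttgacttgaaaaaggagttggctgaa
RPL35B: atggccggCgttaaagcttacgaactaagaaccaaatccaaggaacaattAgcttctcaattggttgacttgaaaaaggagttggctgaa
Most of a read on either copy therefore also matches the other.

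The stalk genes are shown because RPP2B and RPP1B were among the 3 members whose footprints rose furthest in ∆ntd against WT cells in urea. All 5 end in the acidic tail that translation factors dock on. The last 42 coding bases are given with the stop codon in capitals, for RPP0 (chrXII:805887-806825, plus strand), RPP1A (chrIV:309802-310122, minus strand), RPP1B (chrIV:229906-230527, plus strand), RPP2A (chrXV:254297-254617, plus strand) and RPP2B (chrIV:1239492-1239824, plus strand).
RPP0: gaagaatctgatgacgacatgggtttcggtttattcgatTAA
RPP1A: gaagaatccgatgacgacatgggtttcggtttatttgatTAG
RPP1B: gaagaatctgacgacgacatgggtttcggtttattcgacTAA
RPP2A: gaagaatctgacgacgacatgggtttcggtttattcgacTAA
RPP2B: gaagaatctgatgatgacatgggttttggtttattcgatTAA
The tails of RPP1B and RPP2A are identical over these bases, and reads that lie wholly within them could not be counted under unique mapping.

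The RNAseq libraries held 1888481 to 5169546 counted reads and the Riboseq libraries 3067506 to 17380262 footprints, and all 81 genes passed the filter on low counts in both assays. Values are normalised read counts (CPM, a library's counts brought to a common total) on library sizes scaled by TMM within each assay, and tests are edgeR's quasi-likelihood tests over 5486 genes in RNAseq, 5286 in Riboseq and 5251 for TE, at a Benjamini-Hochberg adjusted p of 0.05. Since these are shares of a library, fewer cells of a kind and less RNA per cell cannot be told apart. Nor is the total amount of translation measured. The paper reports fewer polysomes (mRNAs with several ribosomes) relative to single ribosomes in ∆ntd than in WT cells, and a further drop in ∆ntd cells with urea. Higher or lower footprints and TE below are therefore relative to other genes. With 2 cultures a group an exact permutation test cannot go below a p of 0.33, so only tests across all genes are given, and they measure the spread between these cultures. All 6 MATa markers were found, summing to between 1843 and 2714 CPM per RNAseq library, against 18.5 to 31.6 CPM for the 4 MATα markers. The 5 plasmid genes were each at 278 CPM or more in every RNAseq library. TIF3 itself had 2537 and 2536 CPM in ∆ntd cells in urea, 2044 and 1950.0 CPM in ∆ntd cells in SD, 3288 and 3261 CPM in WT cells in urea and 2169 and 2340.4 CPM in WT cells in SD, and the deleted codons make the alleles unequal targets for reads.

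The 81 genes took a larger share of all footprints in ∆ntd cells than in WT cells. In Riboseq they held 13.4% and 14.3% of the counts in ∆ntd cells in urea, 10.4% and 10.6% in ∆ntd cells in SD, 7.62% and 7.78% in WT cells in urea and 8.17% and 7.80% in WT cells in SD. In RNAseq the shares were 10.1% and 9.83% in ∆ntd cells in urea, 7.71% and 7.56% in ∆ntd cells in SD, 7.95% in both cultures of WT cells in urea, and 7.17% and 7.26% in WT cells in SD. The ∆ntd and WT cultures did not overlap in Riboseq in either medium. In RNAseq the ∆ntd cultures in urea stood above all others, while the ∆ntd cultures in SD lay between the WT cultures in urea and those in SD.

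**Figure D1:**
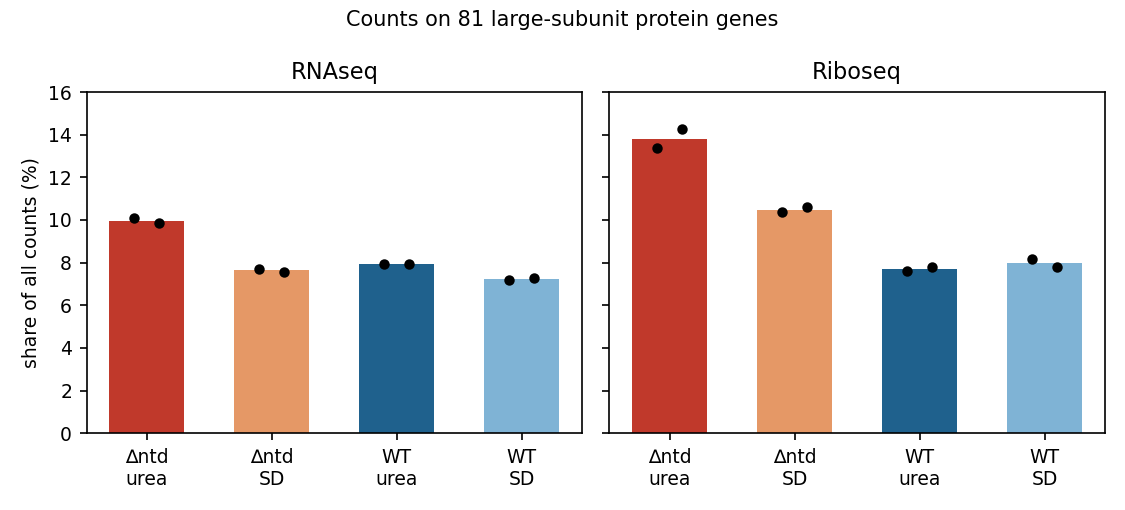
Share of all counts (percent) on the 81 large-subunit genes in RNAseq and Riboseq, with a bar for the mean of each group and a point for each culture. The Riboseq bars of the ∆ntd cells stand above those of the WT cells in both media, and the share in ∆ntd cells in urea reaches 13.4% and 14.3%.

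Within a group the members covered a wide range of levels. Not corrected for length, RNA lay between 3187 and 6463 CPM for RPL3, the longest coding sequence among them, and between 35.8 and 58.3 CPM for RPL15B. Per kb of coding sequence in WT cells in SD, mean RNA was highest for RPP2B, RPL41A and RPL10, at 5047, 5007 and 4891 CPM per kb. Mean footprints were highest for RPL29, RPP2A and RPP1A, at 7871, 6602 and 6027 CPM per kb. Length here is the whole coding sequence, not the part where reads can be assigned. RPL41A shares 82.4% of its windows, against 1% for RPP2B and 0% for RPL10, so its place in this order is not comparable with theirs. The median TE of the members was 1.49 and 1.66 in ∆ntd cells in urea, 1.28 and 1.37 in ∆ntd cells in SD, 0.787 and 0.801 in WT cells in urea, and 0.961 and 0.857 in WT cells in SD. That of all genes lay between 0.559 and 0.583 in every culture. TMM within each assay holds that median nearly constant, so the TE of the members is relative to other genes. In WT cells in SD the highest mean TEs were those of RPL29, at 2.60, RPP2A, at 2.01, and RPL39, at 1.88. The lowest belonged to RPL1B, at 0.228, RPL41B, at 0.240, and RPL41A, at 0.254, all of the class with over 50% of windows shared. By the study's methods RNA fragments were longer than footprints, so the countable part of such a copy differs between the assays. For RPL41A and RPL41B 82.4% of windows of 28 nt are shared and 69% of windows of 50 nt, and for RPL1B 88.7% and 81%. The TE levels of these copies are therefore not comparable with those of other genes.

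∆ntd cells in SD had less RNA for many of the large-subunit genes than WT cells in SD, and more for a few. Of the 81 genes, 39 were lower and 9 higher, with a median log2 fold change of -0.18. Across all genes tested, 19.3% were lower and 17.5% higher. RPL14A and RPP0 fell furthest among called genes. RPL14A, a protein that bacterial ribosomes lack, had 574 and 540.1 CPM in ∆ntd cells in SD, against 894 and 933 CPM in WT cells in SD. RPP0, the scaffold of the stalk, had 1605 and 1589 CPM in ∆ntd cells, against 2525 and 2631 CPM in WT cells. In both genes the ∆ntd cultures lay far below the WT cultures. The log2 fold changes were -0.71 ± 0.07 (SE) for RPL14A and -0.69 ± 0.07 for RPP0, with adjusted p-values of 1.78e-10 and 3.06e-09 in edgeR's quasi-likelihood test. The catalytic-site protein RPL3 had 3411 and 3187 CPM in ∆ntd cells, against 4769.9 and 5099 CPM in WT cells, a log2 fold change of -0.58.

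The 9 genes with more RNA in ∆ntd cells in SD were RPL7B, RPL20B, RPL27B, RPL29, RPL32, RPL37B, RPL38, RPL39 and RPL40A. RPL39, a short protein of the exit tunnel, had 596 and 627 CPM in ∆ntd cells, against 423 and 409 CPM in WT cells. RPL38 had 967 and 954 CPM in ∆ntd cells, against 637 and 678 CPM in WT cells. Both genes were apart between the strains, with log2 fold changes of 0.56 ± 0.07 (SE) and 0.55 ± 0.07. The counts turn on the scaling: with library totals in place of TMM, 36 members were higher and 11 lower, and the median was 0.10. That scaling moved the median of all genes to 0.31, so that relative to all genes the members stood at -0.20 under either scaling. Leaving out 1 culture gave 32 to 40 lower members and 4 to 9 higher ones, and DESeq2 called 4 higher. The count of 4 came without replicate 1 of the ∆ntd cells in SD, and likewise without replicate 1 of the WT cells in SD.

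Footprints in SD were higher for some of the members in ∆ntd cells. In Riboseq the median log2 fold change of ∆ntd over WT cells in SD was 0.37, 75 of the 81 genes had a positive value, 12 were called higher and 0 lower, where 3.67% of all genes were higher and 5.54% lower. The share of all genes with a positive value is not given here. Of the 81, 38 had an unadjusted p under 0.05, a share likewise not given for all genes. Among them were RPL4B, RPL7B, RPL10, RPL20B, RPL39 and RPL41B. RPL10, which helps shape the P site and is loaded last on the subunit, had 3609 and 3536 CPM of footprints in ∆ntd cells in SD, against 2641 and 2561 CPM in WT cells in SD. RPL20B had 1087 and 1105 CPM in ∆ntd cells, against 719 and 712 CPM in WT cells. The cultures of a strain agreed closely, and the strains did not overlap for either gene. RPL20B changed by 0.62 ± 0.10 (SE), with an adjusted p of 0.0101 in edgeR's quasi-likelihood test. The count depends on which libraries share the estimate of the spread. Without either ∆ntd culture in urea, neither of which is part of this comparison, 70 members were higher and 3 lower. It came to 71 and 2 with only the groups compared in the fit, and 64 and 2 with a variance for each group. DESeq2 called 20 higher. Without any 1 culture of either strain in SD the count was 0, and without either WT culture in urea it was 1.

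TE in SD was higher in ∆ntd cells for part of the members. Of the 81 genes, 27 were called higher and 0 lower in ∆ntd against WT cells in SD, with a median log2 fold change of 0.51, where 3.2% of all genes were higher and 3.29% lower. At an unadjusted p under 0.05 there were 52, and the share of all genes at that cut is not given here. RPL3 had a TE of 1.80 and 1.92 in ∆ntd cells, against 0.970 and 0.877 in WT cells. RPP0 had a TE of 2.55 and 2.70 in ∆ntd cells, against 1.40 and 1.24 in WT cells. Both genes had higher values in each ∆ntd culture than in either WT culture, with log2 fold changes of 1.01 ± 0.12 (SE) and 0.99 ± 0.15 and adjusted p-values of 0.000431 and 0.0016 in edgeR's quasi-likelihood test. RPL41A, whose TE was 0.529 and 0.519 in ∆ntd cells and 0.284 and 0.223 in WT cells, had the highest change, 1.05 ± 0.16. It shares 82.4% of its windows of 28 nt with RPL41B, and 1 coding base tells these copies apart. Here too the call count moved with the spread: it was 62 without either ∆ntd culture in urea, 63 with only the groups compared, 60 with a variance for each group and 32 in DESeq2, against 13 without either WT culture in urea, 1 to 6 without a WT culture in SD, 1 to 4 without a ∆ntd culture in SD and 15 with library totals, where the median was 0.28.

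**Figure D2:**
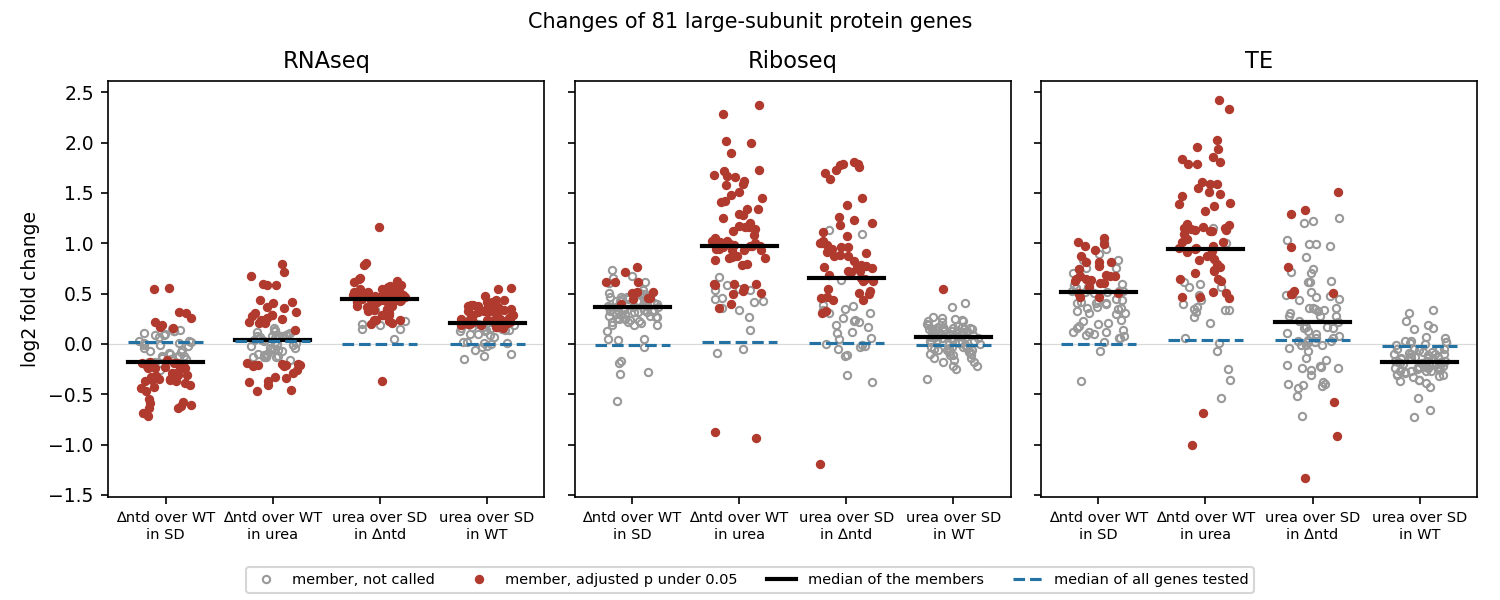
Log2 fold change of each large-subunit gene in RNAseq, Riboseq and TE for the 4 comparisons, with filled red points for an adjusted p under 0.05, a black line for the median of the 81 genes and a dashed blue line for the median of all genes tested. The RNAseq points of ∆ntd against WT cells sit around 0 in urea while the Riboseq and TE points lie mostly above it, with medians of 0.97 and 0.94.

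In urea the strains differed more in footprints than in RNA. RNA of 24 members was higher and of 18 lower in ∆ntd cells in urea than in WT cells in urea, with a median log2 fold change of 0.04, where 21.5% of all genes were higher and 22.5% lower. With library totals 61 were higher and 1 lower, at a median of 0.36, and that of all genes moved to 0.35. RPL41B, RPL38 and RPL39 rose furthest. RPL41B had 689.9 and 472 CPM in ∆ntd cells in urea, against 327 and 347 CPM in WT cells in urea. RPL38 had 1339.6 and 1209 CPM in ∆ntd cells, against 849.8 and 707 CPM in WT cells. Each ∆ntd culture was above both WT cultures for these genes, and the log2 fold changes were 0.79 ± 0.10 (SE) and 0.72 ± 0.07. RPL3 fell to 4545 and 4791 CPM in ∆ntd cells in urea, against 6323 and 6463 CPM in WT cells in urea, a log2 fold change of -0.45 ± 0.06 with an adjusted p of 9.74e-08 in edgeR's quasi-likelihood test. Short genes stood on the high side. Among the 9 members with a coding length under 300 bases, 7 were higher and 1 lower at a median of 0.58, among the 53 of at least 300 and under 600 bases 15 were higher and 11 lower at 0.08, and among the 19 of 600 bases or more 2 were higher and 6 lower at -0.11. Without replicate 2 of the ∆ntd cells in urea 25 members were higher and 10 lower.

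Footprints on 64 of the 81 genes were higher in ∆ntd than in WT cells in urea and on 2 lower, with a median log2 fold change of 0.97, or 1.96-fold. The background was 17.9% of all genes higher and 15.1% lower. The median of all genes was 1.01-fold, which the scaling by TMM holds near no change. Of the 66 calls in either direction, 47 held with only the groups compared in the fit and 52 with library totals. Of the 18 genes with less RNA, 16 were among the 64, and of the 24 with more RNA, 19 were, beside 64 of all 81. RPP2B, RPL11A and RPP1B rose furthest. RPP2B had 3662 and 10338 CPM in ∆ntd cells in urea, 2164 and 2062 CPM in ∆ntd cells in SD, 1388 and 1319.8 CPM in WT cells in urea and 1662 and 1366 CPM in WT cells in SD. RPL11A, which binds the small rRNA of the central protuberance together with RPL5, had 1519.6 and 3667 CPM in ∆ntd cells in urea, 681 and 832 CPM in ∆ntd cells in SD, 554 and 509 CPM in WT cells in urea and 529.8 and 430.0 CPM in WT cells in SD. RPP1B had 4029 and 7796 CPM in ∆ntd cells in urea, 1744 and 1692 CPM in ∆ntd cells in SD, 1498 and 1433 CPM in WT cells in urea and 1497 and 1394 CPM in WT cells in SD. In each of these genes both ∆ntd cultures in urea exceeded the other 6 cultures, and the second was well above the first. The log2 fold changes in urea were 2.37 ± 0.41 (SE) for RPP2B, 2.29 ± 0.36 for RPL11A and 2.01 ± 0.27 for RPP1B, with adjusted p-values of 0.0039, 0.00275 and 0.00127 in edgeR's quasi-likelihood test.

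RPL3 gives the same direction with closer cultures. Its footprints were at 10045 and 8899 CPM in ∆ntd cells in urea, against 4939 and 4998 CPM in WT cells in urea, a log2 fold change of 0.93 ± 0.11 beside its lower RNA. RPL10 had 6365 and 5404 CPM in ∆ntd cells in urea, against 2912 and 2943 CPM in WT cells in urea. The 15 genes that were not called were RPL1A, RPL1B, RPL15B, RPL17A, RPL20A, RPL23A, RPL25, RPL27B, RPL30, RPL31A, RPL35A, RPL38, RPL41A, RPL41B and RPL43B. RPL38, among the genes with the most added RNA, had 714 and 368 CPM of footprints in ∆ntd cells in urea, against 415 and 433 CPM in WT cells in urea, with the strains overlapping. Leaving out 1 culture left 41 to 77 higher members and 0 to 5 lower. The 41 came without replicate 1 of the WT cells in urea, and without replicate 2 there were 43, both with 0 lower. Without replicate 1 of the ∆ntd cells in urea 65 were higher and 5 lower, and without replicate 2, 77 and 2.

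The 2 genes whose footprints were lower were RPL22B and RPL35B, both minor copies of their pair. RPL22B had 30.0 and 21.2 CPM in ∆ntd cells in urea, 29.9 and 37.2 CPM in ∆ntd cells in SD, 46.0 and 49.5 CPM in WT cells in urea and 42.3 and 39.2 CPM in WT cells in SD. RPL35B had 24.1 and 13.5 CPM in ∆ntd cells in urea, 49.5 and 38.9 CPM in ∆ntd cells in SD, 32.0 and 42.5 CPM in WT cells in urea and 35.3 and 38.3 CPM in WT cells in SD. For RPL35B the ∆ntd cultures in urea were the lowest of the 8. For RPL22B they lay below all WT cultures, and the first of them was level with a ∆ntd culture in SD. The log2 fold changes in urea were -0.88 ± 0.19 (SE) and -0.93 ± 0.28, with adjusted p-values of 0.0104 and 0.0336 in edgeR's quasi-likelihood test. RPL22B was called in 11 of the 14 alternative settings and RPL35B in 6. No window of RPL22B is shared with another gene, and 86% of those of RPL35B are.

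In urea 57 members had a higher and 2 a lower TE in ∆ntd cells than in WT cells, with a median log2 fold change of 0.94, where 15.3% of all genes were higher and 10.1% lower. Of these 59 calls, 45 held with only the groups compared in the fit and 37 with library totals. RPP0 had a TE of 3.06 and 2.83 in ∆ntd cells in urea, 2.55 and 2.70 in ∆ntd cells in SD, 1.42 and 1.25 in WT cells in urea and 1.40 and 1.24 in WT cells in SD. RPL3 had a TE of 2.21 and 1.86 in ∆ntd cells in urea, 1.80 and 1.92 in ∆ntd cells in SD, 0.781 and 0.773 in WT cells in urea and 0.970 and 0.877 in WT cells in SD. For both genes all 4 ∆ntd cultures exceeded all 4 WT cultures. The log2 fold changes in urea were 1.15 ± 0.15 (SE) and 1.38 ± 0.12, with adjusted p-values of 0.000131 and 1.24e-05 in edgeR's quasi-likelihood test. The lower genes were the copies of the RPL35 pair. RPL35A had a TE of 0.423 and 0.387 in ∆ntd cells in urea, 0.612 and 0.596 in ∆ntd cells in SD, 0.681 and 0.615 in WT cells in urea and 0.517 and 0.509 in WT cells in SD. RPL35B had a TE of 0.282 and 0.149 in ∆ntd cells in urea, 0.675 and 0.451 in ∆ntd cells in SD, 0.360 and 0.543 in WT cells in urea and 0.441 and 0.564 in WT cells in SD. The ∆ntd cultures in urea were the lowest of the 8 for either copy, and the log2 fold changes were -0.68 ± 0.12 and -0.999 ± 0.31. With library totals, TE of 35 members was higher and of 6 lower at a median of 0.35, and the median of all genes moved to -0.55, so that the members stood 0.90 above all genes under either scaling. Leaving out 1 culture gave 42 to 70 higher members, and 5 lower without replicate 1 of the ∆ntd cells in urea.

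Urea raised RNA of most members in ∆ntd cells. In RNAseq 73 were higher and 1 lower in ∆ntd cells in urea than in ∆ntd cells in SD, with a median log2 fold change of 0.45, where 13.4% of all genes were higher and 12.8% lower. RPP2A had 1414 and 1359 CPM in ∆ntd cells in urea, against 838 and 776 CPM in ∆ntd cells in SD. RPL14B had 544 and 444 CPM in ∆ntd cells in urea, against 249 and 323 CPM in ∆ntd cells in SD. Urea cultures stood above SD cultures for both genes, with log2 fold changes of 0.78 ± 0.06 (SE) and 0.80 ± 0.10. RPL7B was the gene that fell, to 99.1 and 100.1 CPM in ∆ntd cells in urea, against 129 and 128 CPM in ∆ntd cells in SD, a log2 fold change of -0.37 ± 0.10 with an adjusted p of 0.00653 in edgeR's quasi-likelihood test. DESeq2 called 0 lower.

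Footprints of 52 members were higher and of 1, RPL35B, lower in ∆ntd cells in urea than in ∆ntd cells in SD, with a median log2 fold change of 0.66, where 16.9% of all genes were higher and 11.5% lower. Of these 52, 50 were among the 73 with more RNA, who make up most of the 81 members, so a large overlap is to be had without a link. RPL5, the partner of RPL11, had 5186 and 6493 CPM in ∆ntd cells in urea, against 3452 and 3332 CPM in ∆ntd cells in SD. RPP2A had 3617 and 8469 CPM in ∆ntd cells in urea, against 1786 and 1659 CPM in ∆ntd cells in SD. The media did not overlap for either gene, and the log2 fold changes were 0.78 ± 0.13 (SE) and 1.81 ± 0.36. The count was 6 without replicate 1 and 5 without replicate 2 of the ∆ntd cells in SD, and 1 with only these groups in the fit. It was 59, with 11 lower, without replicate 1 of the ∆ntd cells in urea, and 72 without replicate 2. With library totals 32 were higher and 3 lower at a median of 0.23, as that of all genes moved to -0.42.

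TE of 9 members was higher and of 3 lower in ∆ntd cells in urea than in SD, with a median log2 fold change of 0.22, where 7.29% of all genes were higher and 4.27% lower. The 9 were RPL4A, RPL4B, RPL24A, RPL24B, RPL27A, RPL34B, RPL42A, RPP1A and RPP1B, and the 3 were RPL35A, RPL35B and RPL41B. RPL4A, a tunnel protein, had a TE of 1.93 and 4.05 in ∆ntd cells in urea, against 1.04 and 1.05 in ∆ntd cells in SD, a log2 fold change of 1.51 ± 0.32 with an adjusted p of 0.0118 in edgeR's quasi-likelihood test. RPL41B had a TE of 0.223 and 0.243 in ∆ntd cells in urea, against 0.460 and 0.415 in ∆ntd cells in SD, a log2 fold change of -0.91 ± 0.26. The urea cultures of RPL4A were both above, and those of RPL41B both below, the SD cultures. No member was called without either ∆ntd culture in SD or with only these groups in the fit, while 37 were higher and 20 lower without replicate 1 of the ∆ntd cells in urea, and 15 and 4 without replicate 2. With library totals 3 were higher and 8 lower, at a median of -0.16.

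In WT cells urea raised RNA of most members, and few footprint changes passed the test. RNA of 53 members was higher and of 0 lower in WT cells in urea than in WT cells in SD (60 of the 81 had an unadjusted p under 0.05, and DESeq2 called 45 higher and 0 lower), with a median log2 fold change of 0.21, where 16.1% of all genes were higher and 12.4% lower. The share of all genes at an unadjusted p under 0.05 is not given here. RPL9A had 1840.5 and 1804 CPM in WT cells in urea, against 1131 and 1344 CPM in WT cells in SD. RPL10 had 4122 and 4266 CPM in WT cells in urea, against 3207 and 3308 CPM in WT cells in SD. Neither gene overlapped between the media, and the log2 fold changes were 0.56 ± 0.07 (SE) and 0.36 ± 0.06. Of the 53, 51 were also higher in ∆ntd cells, beside 73 of all 81. With library totals 30 were higher and 3 lower at a median of 0.09. Without replicate 1 of the WT cells in SD the count was 35, and without any other culture it lay between 37 and 54.

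Footprints of 1 member, RPL41A, were higher in WT cells in urea than in WT cells in SD and of 0 lower, with a median log2 fold change of 0.07, where 4.73% of all genes were higher and 4.48% lower. In edgeR's quasi-likelihood test 2 of the 81 had an unadjusted p under 0.05, and DESeq2 called 1 higher and 0 lower. RPL41A had 152 and 137 CPM in WT cells in urea, against 108 and 89.8 CPM in WT cells in SD, a log2 fold change of 0.55 ± 0.12 (SE), and was called in 6 of the 14 alternative settings. TE was higher for 0 members and lower for 0, with a median log2 fold change of -0.18, where 0.114% of all genes were higher and 0.019% lower. In edgeR's quasi-likelihood test 5 members had an unadjusted p under 0.05 for TE, and DESeq2 called 0 in either direction. For neither assay is the share of all genes at that unadjusted cut given here. Without replicate 1 of the ∆ntd cells in urea, a group outside this comparison, 10 members were higher and 4 lower in Riboseq and 9 lower in TE, and without replicate 2, 11, 4 and 10. Without any other culture 0 were called in Riboseq or TE.

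Whether urea acted differently in ∆ntd and WT cells was tested directly. In RNAseq the response of ∆ntd cells exceeded that of WT cells for 25 members and fell short for 0 (41 had an unadjusted p under 0.05, and DESeq2 called 14 and 0), with a median log2 difference of 0.20, where 4.37% of all genes were higher and 6.07% lower. RPL41B had the highest difference, 0.97 ± 0.16 (SE), with an adjusted p of 4.61e-05 in edgeR's quasi-likelihood test. In Riboseq it did so for 14 members and fell short for 0 (49 had an unadjusted p under 0.05, and DESeq2 called 34 and 1), with a median of 0.55, where 4.92% of all genes were higher and 3.44% lower. RPP2A had the highest difference, 2.03 ± 0.49 (SE), with an adjusted p of 0.0464. In TE 0 members were higher and 1, RPL35A, lower at -0.92 ± 0.17 (SE), with a median of 0.40, where 0.267% of all genes were higher and 0.343% lower. In edgeR's quasi-likelihood test 31 of the 81 had an unadjusted p under 0.05 for that TE difference, and DESeq2 called 2 higher and 1 lower. The share of all genes at that unadjusted cut is not given here for RNAseq, Riboseq or TE. With library totals 7 were higher in Riboseq at a median of 0.24, and the TE median was 0.037, as the medians of all genes moved to -0.28 and -0.30. Without replicate 2 of the WT cells in SD 14 were higher in RNAseq, and without replicate 1 of the WT cells in urea 16. In Riboseq 50 were higher and 12 lower without replicate 1 of the ∆ntd cells in urea, and 64 and 2 without replicate 2. In TE these counts were 39 and 13, and 20 and 2. Without a culture of any other group no member was called in Riboseq or TE.

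The stalk genes had less RNA in SD and more footprints in urea. RNA of 6 of its 7 genes (RPP0, RPP1A, RPP1B, RPP2A, RPP2B, RPL12A and RPL12B) was lower in ∆ntd than in WT cells in SD, at a median log2 fold change of -0.46 beside -0.18 for all members. RPL12 binds the base of the stalk, and RPL12B was the gene without a call, at 0.01. Footprints of 7 of 7 were higher in ∆ntd than in WT cells in urea at a median of 1.51, beside 0.97 for all members, and TE of 7 of 7 at 1.51, beside 0.94. Set against the mean of the WT cells in urea, the median of the 7 was 0.96 in replicate 1 of the ∆ntd cells in urea and 2.03 in replicate 2, beside 0.87 and 0.97 for all members, so that the distance from the other members lay mostly in replicate 2. In TE these medians were 1.03 and 2.02, beside 0.83 and 0.94. Over all genes 19.3% were lower in RNAseq in SD, and 17.9% were higher in Riboseq and 15.3% in TE in urea. In SD 0 of the 7 were called in Riboseq in edgeR's quasi-likelihood test, at a median of 0.25. Within the stalk RPP0 differed from the acidic proteins in how its cultures lay. RPP0 had 7051 and 7752 CPM in ∆ntd cells in urea, 4094 and 4289 CPM in ∆ntd cells in SD, 3786 and 3941 CPM in WT cells in urea and 3533 and 3268 CPM in WT cells in SD of footprints. RPP1A had 2962 and 7589.7 CPM in ∆ntd cells in urea, 1608 and 1775 CPM in ∆ntd cells in SD, 1901 and 1805 CPM in WT cells in urea and 2189.5 and 1679.5 CPM in WT cells in SD. RPP2A had 3617 and 8469 CPM in ∆ntd cells in urea, 1786 and 1659 CPM in ∆ntd cells in SD, 1645 and 2006 CPM in WT cells in urea and 2451 and 1788 CPM in WT cells in SD. RPP0 was close in the ∆ntd cultures in urea, and for the acidic proteins the second of these cultures held between 1.93 and 2.82 times the footprints of the first.

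**Figure D3:**
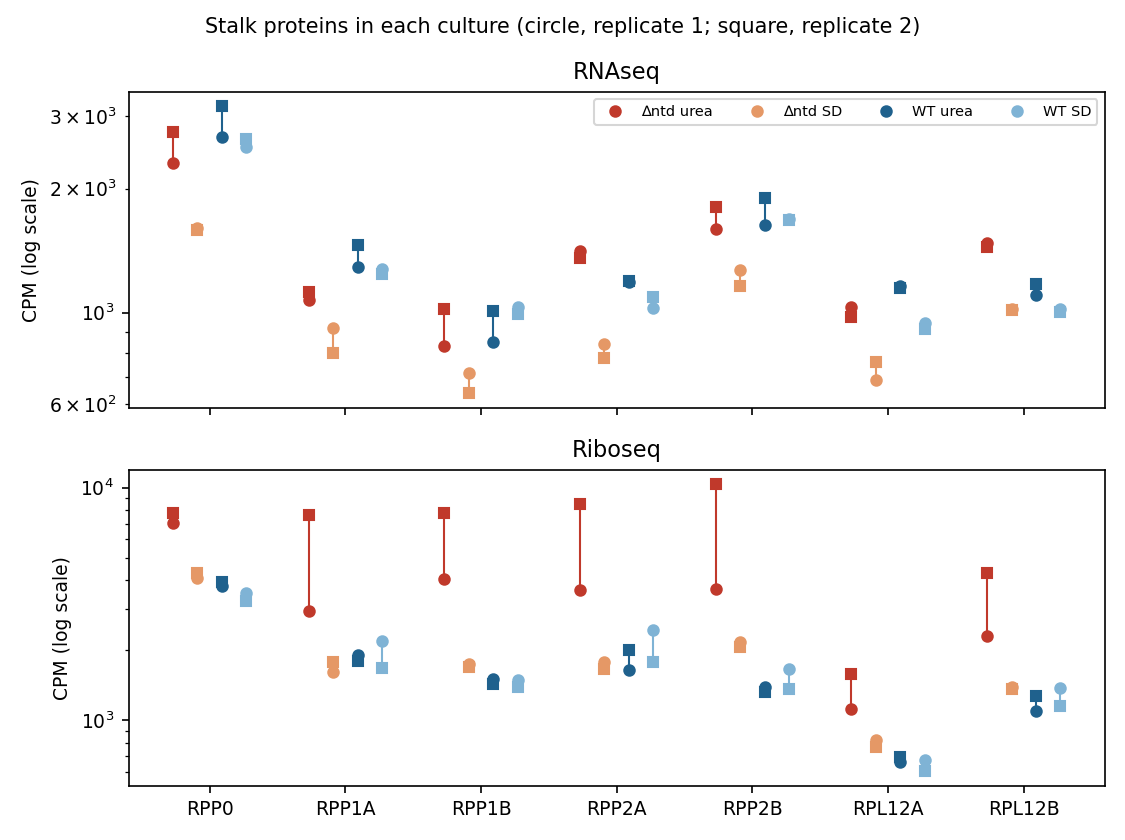
Normalised counts (CPM, log axis) of the stalk genes RPP0, RPP1A, RPP1B, RPP2A, RPP2B, RPL12A and RPL12B in RNAseq and Riboseq, with a circle for replicate 1 and a square for replicate 2 of each group. In Riboseq the ∆ntd cultures in urea lie above the other groups for each gene, and the acidic P proteins are spread between those cultures.

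Of the 3 genes around the small rRNA of the central protuberance (RPL5, RPL11A and RPL11B), 3 were higher in footprints in ∆ntd than in WT cells in urea at a median of 2.00 and 3 in TE at 1.58, while RNA of 2 was lower in SD, RPL5 among them, which stood at 0.046 with library totals. RPL5 had 5186 and 6493 CPM of footprints in ∆ntd cells in urea, against 2823 and 2918 CPM in WT cells in urea. RPL11B had 856 and 1717 CPM in ∆ntd cells, against 337 and 307 CPM in WT cells. Set against the mean of the WT cells in urea, the median footprint change of the 3 was 1.41 in replicate 1 and 2.42 in replicate 2 of the ∆ntd cells in urea. The strains were apart for both genes, and the log2 fold changes were 1.02 ± 0.13 (SE) and 2.00 ± 0.29. Over all genes 17.9% were higher in footprints and 15.3% in TE in urea, and 19.3% were lower in RNAseq in SD.

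Of the 5 genes of the catalytic and P sites (RPL2A, RPL2B, RPL3, RPL10 and RPL28), footprints of 5 were higher in ∆ntd than in WT cells in urea at a median of 0.93 and TE of 5 at 0.97, and RNA of 3 was lower and of 1 higher, where RPL2A and RPL2B turned to 0.12 and 0.062 with library totals. RPL28, which carries resistance to cycloheximide when mutated, is the 1 with more RNA, and its TE change turned to -0.12 with library totals. The 14 exit-tunnel genes were the most divided of the roles. Footprints of 9 were higher and of 1 lower at 0.77, and TE of 8 higher and of 2 lower at 0.53. The lower ones were copies of RPL35, and the rest were not called. With library totals TE of RPL17B and RPL39 turned to -0.13 and -0.14. Of the 6 genes at the bridges to the small subunit (RPL19, RPL24 and RPL41 pairs) 4 were higher in footprints at 0.97, and the RPL41 copies were not called. RPL24B had 2009.8 and 3380.1 CPM in ∆ntd cells in urea, against 847 and 863 CPM in WT cells in urea, a log2 fold change of 1.66 ± 0.22 (SE). RPL40A and RPL40B, made as fusions to ubiquitin, were higher in footprints for 2 of 2 at a median of 0.47 and not called in TE. Over all genes 17.9% were higher and 15.1% lower in Riboseq of that comparison, 15.3% and 10.1% in TE, and 21.5% and 22.5% in RNAseq. Of all 81 members, 64 were higher in footprints, and no test set a role against the other members.

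The ∆ntd cultures in urea lay further apart in Riboseq than the cultures of any other group. Between these cultures 12 members were over 2-fold apart, 11 of them higher in replicate 2, and in each of the other groups 0 were. The SD over the 81 genes of the log2 ratio between the 2 cultures was 0.69 in ∆ntd cells in urea, 0.12 in ∆ntd cells in SD, 0.12 in WT cells in urea and 0.15 in WT cells in SD. In RNAseq of the ∆ntd cells in urea it was 0.14, and for all genes in Riboseq of the ∆ntd cells in urea 0.51. RPL29 had 2056 and 6092 CPM of footprints in the ∆ntd cultures in urea, and RPL14A had 1237 and 3802 CPM. RPL43B was the gene that went the other way, with 931 and 383 CPM. Of the 81 members, 73 were above the mean of the WT cells in urea in both ∆ntd cultures, and 68 in TE. The share of all genes that lies so is not given here, so these counts have no background beside them.

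Across the 81 genes, the log2 ratio of these 2 cultures correlated with the log2 change of ∆ntd over WT cells in urea (Pearson's r 0.75, Spearman's rho 0.77), which shares the same libraries. It correlated with the ratio of the 2 WT cultures in SD in the opposite sense (r -0.76, rho -0.75), and with the ratio in RNAseq of the same ∆ntd cultures hardly (r 0.03, rho -0.03). These are descriptions over genes, which share libraries and are not independent replicates. The part that the difference between the cultures has in the changes was not tested.

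**Figure D4:**
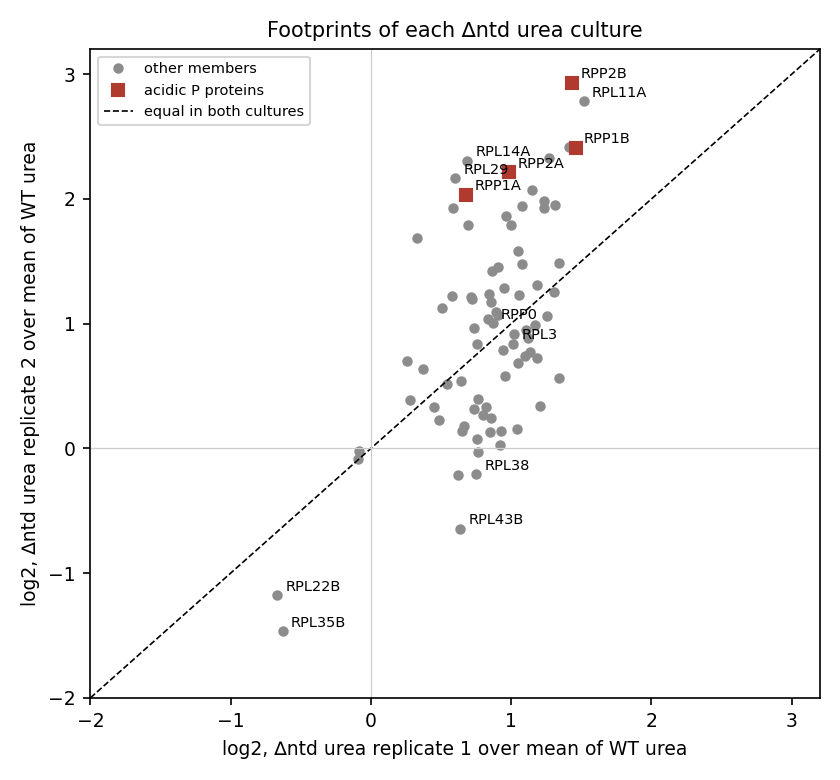
Footprint change of each large-subunit gene in ∆ntd cells in urea, as the log2 ratio of replicate 1 (x axis) and of replicate 2 (y axis) to the mean of the WT cells in urea, with the P proteins as red squares and a dashed line where both cultures agree. Most genes lie above 0 on both axes, 73 of 81, and the acidic P proteins lie far above the line.

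Within pairs, the copy with more RNA was the same in every library for most. In RNAseq the A copy was above the B copy in all 8 libraries for 18 of the 33 pairs and the B copy above the A copy for 9, and in Riboseq these counts were 18 and 11. Because each copy keeps the same unique positions in every library, the ratio of A to B can be compared between libraries of an assay. The footprint ratio of RPL22A to RPL22B was the clearest. On the log2 scale it was 6.16 and 6.31 in ∆ntd cells in urea, 5.41 and 5.22 in ∆ntd cells in SD, 4.32 and 4.40 in WT cells in urea and 4.60 and 4.78 in WT cells in SD. The ratio was higher in each ∆ntd culture than in any WT culture, and highest with urea. RPL22A had 2148 and 1677 CPM of footprints in ∆ntd cells in urea, against 917 and 1045 CPM in WT cells in urea, and rose by 0.96 ± 0.14 (SE), while RPL22B fell. In Riboseq 22 pairs had both copies higher in ∆ntd than in WT cells in urea, and RPL22 was the pair with opposite calls. Taken singly, 64 of the 81 genes were higher and 2 lower there, beside 17.9% and 15.1% of all genes.

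In RNAseq the RPL41 ratio crossed 0. Its log2 value was -0.96 and -0.45 in ∆ntd cells in urea, 0.02 and -0.13 in ∆ntd cells in SD, 0.37 and 0.53 in WT cells in urea, and 0.48 and 0.32 in WT cells in SD. RPL41A had 354 and 345 CPM in ∆ntd cells in urea, 239 and 266 CPM in ∆ntd cells in SD, 422 and 499 CPM in WT cells in urea and 378 and 403 CPM in WT cells in SD. RPL41B had 689.9 and 472 CPM in ∆ntd cells in urea, 236 and 291 CPM in ∆ntd cells in SD, 327 and 347 CPM in WT cells in urea and 271 and 323 CPM in WT cells in SD. RPL41A was lower in ∆ntd than in WT cells in either medium and RPL41B higher in ∆ntd cells in urea than elsewhere, with the reservation that only reads over 1 base, or outside the coding sequence if counted, tell them apart. RPL8 also shifted. The log2 ratio of RPL8A to RPL8B RNA was -1.27 and -1.26 in ∆ntd cells in urea, -0.88 and -0.87 in ∆ntd cells in SD, -0.64 and -0.67 in WT cells in urea, and -0.30 and -0.37 in WT cells in SD. The 4 groups did not overlap, and the B copy led in all of them. RPL8A had 653 and 647 CPM of RNA in ∆ntd cells in urea, against 823 and 853 CPM in WT cells in urea, and RPL8B had 1578 and 1551 CPM in ∆ntd cells, against 1283 and 1352 CPM in WT cells. Of the 33 pairs, 2 had both copies higher, 3 both lower and 4 (RPL8, RPL12, RPL19 and RPL41) opposite calls in RNAseq of ∆ntd against WT cells in urea, of which RPL12A and RPL19B turned to 0.13 and 0.10 with library totals, so that RPL12 and RPL19 were no longer opposite. In RNAseq of urea against SD in ∆ntd cells both copies rose in 25 pairs and RPL7 had opposite calls. Over all genes 13.4% were higher and 12.8% lower in that comparison, and 21.5% and 22.5% in ∆ntd against WT cells in urea. These shares are of single genes rather than of pairs.

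**Figure D5:**
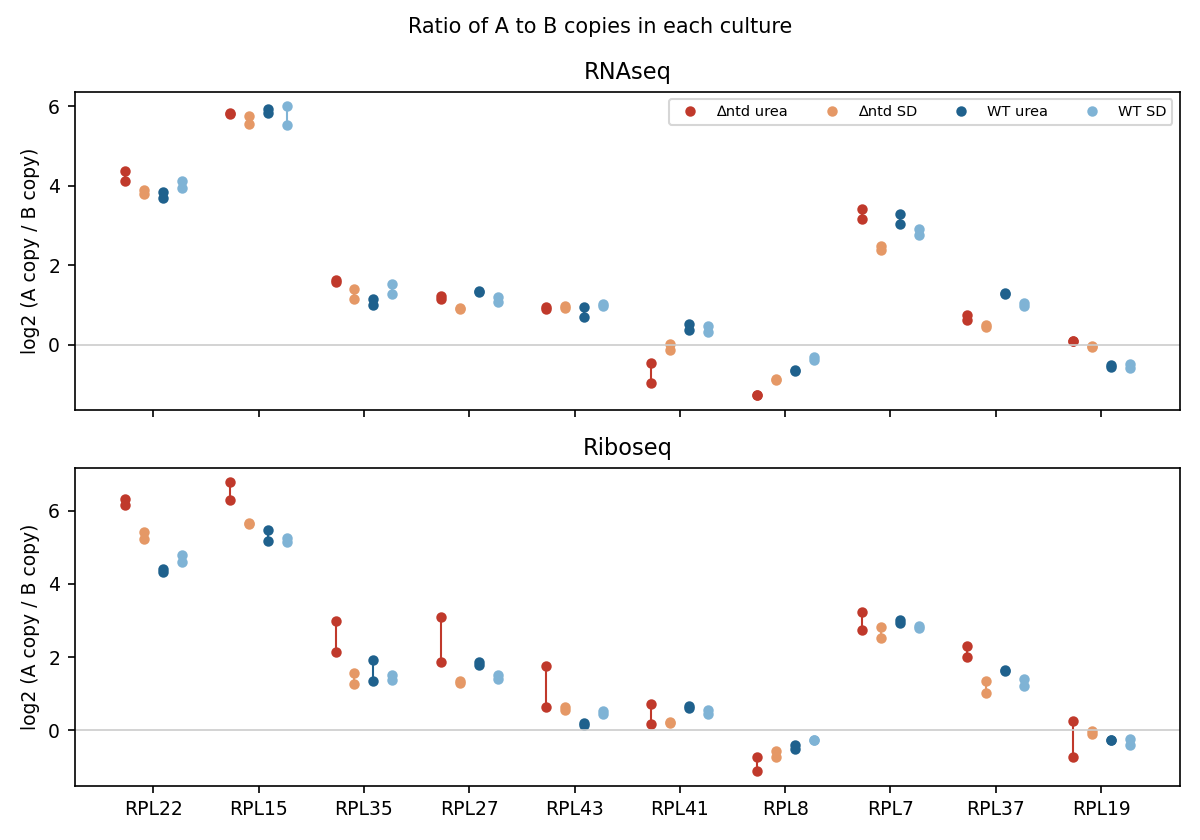
Log2 ratio of the A to the B copy for 10 pairs in RNAseq and Riboseq, with 1 point for each culture by group. RPL22 and RPL15 have the highest Riboseq ratios, and the RPL8 ratio in RNAseq is below 0 in all 8 cultures.

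Members were also grouped by how much sequence they share with other genes. In ∆ntd against WT cells in urea, footprints of 22 of the 29 members with under 10% of windows shared were higher and of 1 lower, at a median of 0.96. With 10% to 50% shared, 32 of 36 were higher at 0.97, and with over 50% shared, 10 of 16 were higher and 1 lower at 1.04. TE was higher for 20 of 29 at 0.71, 26 of 36 at 0.95 and 11 of 16 at 0.96, with 2 lower in the last class. Of the genes with an intron, footprints of 42 of 53 were higher and of 2 lower at 0.93. Of those without, 22 of 28 were higher at 1.02. Over all genes 17.9% were higher and 15.1% lower in Riboseq, and 15.3% and 10.1% in TE.

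Small-subunit proteins of the same ribosome had calls and medians near those of the large subunit. In ∆ntd against WT cells in urea, the 81 large-subunit genes had the 64 higher and 2 lower footprint calls given above at a median of 0.97, and the 57 small-subunit genes 43 and 0 at 1.01. In TE the small-subunit genes had 42 higher and 1 lower at 0.94, in RNAseq of ∆ntd against WT cells in SD 8 higher and 24 lower at -0.12, and in RNAseq of urea against SD in ∆ntd cells 54 higher and 0 lower at 0.43. The 43 mitochondrial large-subunit genes had 6 higher and 2 lower footprint calls in ∆ntd against WT cells in urea at 0.08, and 4 higher and 0 lower TE calls at -0.01, where 17.9% of all genes were higher and 15.1% lower in Riboseq, and 15.3% and 10.1% in TE. No test of the difference between these lists was run.

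Other genes act on these proteins rather than in the ribosome. Over all genes, 21.5% were higher and 22.5% lower in RNAseq of ∆ntd against WT cells in urea, 17.9% and 15.1% in Riboseq, and 15.3% and 10.1% in TE, and 7.29% and 4.27% in TE of urea against SD in ∆ntd cells. The 16 regulators of ribosomal protein transcription had 12 higher and 1 lower RNA calls in ∆ntd against WT cells in urea, at a median of 0.44, and 1 higher and 4 lower TE calls at -0.37. TOD6, a repressor of ribosome biogenesis genes, had a log2 fold change of 1.39 in RNAseq and -1.17 in TE. HMO1, a DNA-binding protein found at ribosomal protein promoters, was the regulator with a higher TE, at 1.18. The 7 dedicated chaperones, which escort single ribosomal proteins to the nucleus, had 0 higher and 3 lower TE calls in the same comparison at -0.40. These were SYO1, which carries Rpl5 and Rpl11, at -1.13, PUF6 at -0.53 and RRB1, the chaperone of Rpl3, at -0.50. In urea against SD within ∆ntd cells the same genes fell in TE by 1.19, 0.99 and 0.57 on the log2 scale. The 14 factors of late subunit maturation that were measured had 0 higher and 6 lower TE calls in that comparison at -0.48. Among them were ARX1 at -1.03, the export adaptor NMD3 at -1.01 and NOG1 at -0.87. In ∆ntd against WT cells in urea NMD3 was the only one of these factors called in TE, at -0.45, and their footprint calls went in both directions. No TE call of a large-subunit gene for urea against SD in ∆ntd cells held with only those groups in the fit. Whether the calls of the chaperones and maturation factors held in that fit is not given here. The 8 enzymes that modify ribosomal proteins had 5 higher and 2 lower footprint calls in ∆ntd against WT cells in urea at 0.72, and 2 higher and 2 lower TE calls, among them TAE1 at 1.23, RKM5 at 1.16 and RMT2 at -0.78. All calls in this paragraph are from edgeR's quasi-likelihood test.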

How the data were processed

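On the RiboGalaxy platform the authors used Cutadapt for the linkers, subtracted non-coding RNA reads with Bowtie, mapped what was left onto the SGD transcriptome and obtained counts of uniquely mapped reads with Ribocount. The deposited values are raw counts for 6692 genes in 16 libraries, of which 378 genes had no count. The mismatches allowed, any read length filter and the part of the transcript counted are not given in the sources used here. Unique mapping discards reads that paralogs share, so a copy's level is too low by an amount that differs between genes. CPM is therefore compared between groups rather than between genes, apart from the description of the range of levels and TE, which carries that limit. Columns of the authors' own DESeq2 results (log2 fold changes, false discovery rates) were left unused. All columns of counts matched a sample.

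Tests used edgeR 4.0.16 under R 4.3.3 (TMM, filterByExpr, glmQLFit and glmQLFTest), with DESeq2 1.42.0 and limma 3.58.1 (for a variance in each group) as alternatives, and tables and plots were made in Python 3.11.15 with pandas 2.3.3, numpy 2.4.6 and matplotlib 3.10.9. Each assay was fitted over its 8 libraries with 4 group means, and TE as the difference of the Riboseq and RNAseq changes in 1 model over all 16 libraries. The fits were checked on simulated counts with an equal spread in all groups. That check does not cover the wider Riboseq spread of the ∆ntd cultures in urea. Sequences, introns and coding lengths come from the RefSeq copy of the R64 genome, matched by systematic name for all 81 genes. By the study's methods the replicates are separately grown cultures.

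Named genes are, in each comparison and assay, the 3 largest rises and falls among called members whose cultures did not overlap, the members of the role lists, the 5 pairs per assay whose ratio varied most, and at most 3 called genes from each other list. TIF3 and the 3 highest and 3 lowest members by TE in WT cells in SD were named too. Other members appear only where a list of calls is spelled out, and those were chosen after their values were seen. A further item is not reported here. The members and lists were chosen with earlier results of these data known. Alternatives were DESeq2, library totals, no filter on low counts, only the groups compared, a variance for each group, a replicate block and each culture left out.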

Additional observations from a re-analysis of the deposited data

Results flagged for a closer look

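Among the members named by rule, 30 values were set aside because the urea response of ∆ntd cells differed from that of WT cells by the test of the difference itself (edgeR's quasi-likelihood test, adjusted over all genes). Each value is the log2 response of ∆ntd cells minus that of WT cells, so a positive one means that urea raised the gene more, or lowered it less, in ∆ntd cells. Groups of 2 cultures are too small to test a single culture as standing apart.

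In RNAseq the 19 differences were 0.31 for RPL11A, 0.48 for RPL11B, 0.35 for RPL12B, 0.49 for RPL14A, 0.28 for RPL17A, 0.29 for RPL19A, 0.40 for RPL26A, 0.26 for RPL26B, 0.41 for RPL31A, 0.60 for RPL35A, 0.29 for RPL37B, 0.97 for RPL41B, 0.41 for RPL43A, 0.48 for RPL4B, 0.33 for RPL8B, 0.48 for RPP0, 0.57 for RPP1B, 0.61 for RPP2A and 0.41 for RPP2B. All 19 are positive, and stalk, tunnel and central protuberance genes are among them. RPL41B, RPP2A and RPL35A lead, and the first and last of these share most of their sequence with a copy.

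In Riboseq the 10 differences were 0.66 for RPL19B, 0.71 for RPL24A, 1.28 for RPL24B, 0.74 for RPL27A, 0.90 for RPL37A, 0.71 for RPL43A, 0.80 for RPL4B, 0.64 for RPP0, 1.76 for RPP1B and 2.03 for RPP2A. The acidic proteins RPP1B and RPP2A have the highest values, and for these genes the second ∆ntd culture in urea held 1.93 and 2.34 times the footprints of the first. Only without 1 of those cultures were members called in Riboseq when a culture was left out. In TE the difference was -0.92 for RPL35A, where RNA responded more and footprints were not called.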

How the results depend on the processing

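Of the counts, medians and shares, 479 values under an alternative stayed near the reported ones, 164 moved and 3 changed sign, all 3 with library totals. The calls of named genes held for 322 and were lost for 34 in DESeq2, 335 and 21 with a variance for each group, 350 and 6 with no filter on low counts, 279 and 77 with only the groups compared, 243 and 91 with library totals (22 changed sign), and 2330 and 558 over the fits without 1 culture. With only the rows kept by the filter, the share of RNAseq counts was 7.95% in both WT cultures in urea. Where a cause of these shifts is not shown by the setting itself, the cause was not tested. Groups of 2 cultures leave few degrees of freedom, and for copies with over 50% of windows shared only part of the reads were countable.

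DESeq2 in place of edgeR moved the following counts. In RNAseq it gave 4 higher for ∆ntd against WT cells in SD, 0 lower for urea against SD in ∆ntd cells and 14 higher for the difference of the urea responses. In Riboseq it gave 20 higher for ∆ntd against WT cells in SD and 34 higher and 1 lower for the difference of the urea responses. In TE it gave 2 higher for the difference of the urea responses.

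A variance for each group in place of a shared one moved these. In Riboseq it gave 64 higher and 2 lower for ∆ntd against WT cells in SD, 0 lower for ∆ntd against WT cells in urea, 0 lower for urea against SD in ∆ntd cells, 5 higher and 1 lower for urea against SD in WT cells and 38 higher for the difference of the urea responses. In TE it gave 60 higher for ∆ntd against WT cells in SD, 1 lower for ∆ntd against WT cells in urea, 14 higher for urea against SD in ∆ntd cells, 8 lower for urea against SD in WT cells and 15 higher for the difference of the urea responses.

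Library totals in place of TMM moved more, medians included. In RNAseq it gave 36 higher, 11 lower and a median of 0.10 for ∆ntd against WT cells in SD, 61 higher, 1 lower and a median of 0.36 for ∆ntd against WT cells in urea, a median of 0.37 for urea against SD in ∆ntd cells and 30 higher, 3 lower and a median of 0.095 for urea against SD in WT cells. In Riboseq it gave a median of 0.42 for ∆ntd against WT cells in SD, a median of 0.69 for ∆ntd against WT cells in urea, 32 higher, 3 lower and a median of 0.23 for urea against SD in ∆ntd cells, 0 higher and a median of -0.052 for urea against SD in WT cells and 7 higher and a median of 0.24 for the difference of the urea responses. In TE it gave 15 higher and a median of 0.28 for ∆ntd against WT cells in SD, 35 higher, 6 lower and a median of 0.35 for ∆ntd against WT cells in urea, 3 higher, 8 lower and a median of -0.16 for urea against SD in ∆ntd cells and a median of 0.037 for the difference of the urea responses. With library totals 22 log2 values of named genes changed sign: RPL24A 0.096, RPL26A 0.096, RPL31B 0.075, RPL37A 0.041, RPL4A 0.10, RPL4B 0.041, RPL5 0.046 and RPL9A 0.092 in RNAseq of ∆ntd against WT cells in SD, RPL12A 0.13, RPL14A 0.10, RPL15A 0.13, RPL19B 0.10, RPL2A 0.12, RPL2B 0.062, RPL9A 0.031 and RPP0 0.11 in RNAseq of ∆ntd against WT cells in urea, RPL20B -0.12 and RPL8A -0.016 in Riboseq of urea against SD in ∆ntd cells, RPL17B -0.13, RPL20B -0.086, RPL28 -0.12 and RPL39 -0.14 in TE of ∆ntd against WT cells in urea.

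A fit of only the groups compared moved these. In Riboseq it gave 71 higher and 2 lower for ∆ntd against WT cells in SD, 1 lower for ∆ntd against WT cells in urea, 1 higher and 0 lower for urea against SD in ∆ntd cells and 8 higher and 3 lower for urea against SD in WT cells. In TE it gave 63 higher for ∆ntd against WT cells in SD, 1 lower for ∆ntd against WT cells in urea, 0 higher and 0 lower for urea against SD in ∆ntd cells and 1 higher and 10 lower for urea against SD in WT cells.

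Each of the 8 cultures was left out in turn, and the ranges over the 8 fits follow. In RNAseq these were 4 to 9 higher, 32 to 40 lower and a median of -0.20 to -0.13 for ∆ntd against WT cells in SD, 21 to 28 higher, 10 to 18 lower and a median of 0.0076 to 0.061 for ∆ntd against WT cells in urea, 69 to 74 higher, 1 lower and a median of 0.42 to 0.48 for urea against SD in ∆ntd cells, 35 to 54 higher, 0 to 1 lower and a median of 0.20 to 0.23 for urea against SD in WT cells, 14 to 28 higher, 0 lower and a median of 0.18 to 0.24 for the difference of the urea responses. In Riboseq these were 0 to 70 higher, 0 to 3 lower and a median of 0.32 to 0.42 for ∆ntd against WT cells in SD, 41 to 77 higher, 0 to 5 lower and a median of 0.86 to 0.98 for ∆ntd against WT cells in urea, 5 to 72 higher, 0 to 11 lower and a median of 0.60 to 0.70 for urea against SD in ∆ntd cells, 0 to 11 higher, 0 to 4 lower and a median of 0.018 to 0.14 for urea against SD in WT cells, 0 to 64 higher, 0 to 12 lower and a median of 0.49 to 0.64 for the difference of the urea responses. In TE these were 1 to 62 higher, 0 lower and a median of 0.45 to 0.57 for ∆ntd against WT cells in SD, 42 to 70 higher, 1 to 5 lower and a median of 0.81 to 0.95 for ∆ntd against WT cells in urea, 0 to 37 higher, 0 to 20 lower and a median of 0.13 to 0.26 for urea against SD in ∆ntd cells, 0 to 1 higher, 0 to 10 lower and a median of -0.24 to -0.092 for urea against SD in WT cells, 0 to 39 higher, 0 to 13 lower and a median of 0.32 to 0.43 for the difference of the urea responses. Without a culture a group rests on 1 library, whose spread is taken to be that of the other groups.

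Adding the replicate number as a replicate block gave 5 higher in Riboseq of ∆ntd against WT cells in SD, 0 higher in Riboseq of urea against SD in WT cells, 1 higher in Riboseq of the difference of the urea responses, 5 higher in TE of urea against SD in ∆ntd cells, 0 lower in TE of the difference of the urea responses. Cultures of the same number in different groups had deviations correlated between -0.36 and 0.06 in Riboseq and between -0.03 and 0.04 in RNAseq, so they share a number and are not treated as pairs. Of the named values, 324 kept their call and 32 lost it under the block.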
